A study of Harpegnathos saltator with 36 samples.

Results

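Imp-L2 (LOC105183446; RefSeq symbol ImpL2) and ALS (LOC105189593; RefSeq symbol conv) are 2 of the 12654 genes counted in the ant Harpegnathos saltator, and were chosen as the genes named for secreted proteins that bind insulin. RNA from the whole ovary and from the central brain without optic lobes of single ants about 6 months old was sequenced. Each tissue had 4 gamergates (workers that became egg layers), 4 revertants (former gamergates returned to the worker state) and 4 workers, which makes 24 libraries. The gamergates and workers lived in the transition colony, the revertants in the reversion colony, so caste and colony cannot be told apart in any comparison with revertants. All ovary libraries were run in lane 5 and all brain libraries in lane 6, so tissue and lane cannot be told apart either. Both genes passed the filter on low counts in all 12 comparisons made. The RefSeq table of assembly Hsal_v8.6 lists 4 transcripts for ImpL2 and 2 for conv, and the counts are sums per gene.

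Insulin-like peptides bind a receptor tyrosine kinase at the cell surface. The receptor signals through PI3K and AKT, which keep the transcription factor FOXO out of the nucleus, and through RAS and the MAPK kinases. Imp-L2 is a secreted immunoglobulin-domain protein that in Drosophila binds insulin-like peptides in the hemolymph and dampens signaling in distant tissues. ALS, the acid-labile subunit, is a secreted leucine-rich repeat protein. In mammals it holds insulin-like growth factor in a large circulating complex, and in Drosophila it forms a complex with Imp-L2 and insulin-like peptides.

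Total counts ranged from 1663266 to 23882325 per ovary library and from 1339043 to 12917125 per brain library. All 4 gamergate ovaries, 2 revertant ovaries and 1 worker ovary held more than 3500000 counts, as did 0 gamergate, 4 revertant and 2 worker brains. The libraries matched their tissue labels. The vitellogenin receptor yl, which takes yolk protein into the oocyte, had 160 to 2030 CPM (counts scaled to a common library total) in ovaries and 10.5 to 31.7 CPM in brains. The summed level of 8 neuronal genes was 170 to 347 CPM in ovaries and 3260 to 5560 CPM in brains. In whole tissues, fewer cells of a type and less RNA per cell cannot be told apart. Nothing in the labels ties a library number to a shared culture or to the same ant in both tissues, and p-values measure the spread between single ants.

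Expression of ALS was strongly increased in the ovary of gamergates. ALS had 165, 163, 116 and 78.6 CPM in the 4 gamergate ovaries, from 2248, 865, 2465 and 971 reads. It had 6.86, 9.24, 9.7 and 12.1 CPM in revertant ovaries, from 13, 68, 56 and 27 reads. In worker ovaries it had 4.34, 7.53, 6.28 and 4.45 CPM, from 17, 20, 44 and 10 reads. No gamergate ovary overlapped the others. Of all genes tested, 32.8% likewise lay higher without overlap in gamergate than in worker ovaries, and 33% against revertants. The lowest gamergate ovary lay far above the highest ovary of either other caste, and gamergates also spread more widely among themselves in CPM, with a mean of 130.4 ± 41.2 against 9.48 ± 2.15 in revertants and 5.65 ± 1.54 in workers (SD, n = 4 each). ALS was 21.5-fold higher in gamergate than in worker ovaries (log2 fold change 4.43, SE 0.305, 95% interval 3.74 to 5.12, adjusted p = 2.24e-05). Every adjusted p here is a Benjamini-Hochberg value over all genes tested with the quasi-likelihood test of edgeR. Between these ovaries 29.4% of 9267 genes were called higher in gamergates and 28.9% lower, so a call alone was common, and 2.15% of genes had a larger log2 fold change than ALS. ALS was 12.8-fold higher in gamergate than in revertant ovaries (log2 fold change 3.68, SE 0.286, adjusted p = 2.94e-05), where 28.7% of genes were called higher and 29% lower. Both comparisons use the same gamergate libraries.

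Imp-L2 was also increased in the gamergate ovary, by less. Imp-L2 had 66.1, 45.9, 54.7 and 48 CPM in gamergate ovaries, from 903, 244, 1166 and 593 reads. It had 13.2, 8.01, 8.49 and 17.9 CPM in revertant ovaries, from 25, 59, 49 and 40 reads. Worker ovaries had 11.5, 11.7, 6 and 14.7 CPM, from 45, 31, 42 and 33 reads. The gamergate ovaries lay above all others, as for 32.8% of all genes against workers and 33% against revertants. The ranges of revertants and workers overlapped. Imp-L2 was 4.69-fold higher in gamergate than in worker ovaries (log2 fold change 2.23, SE 0.276, 95% interval 1.60 to 2.85, adjusted p = 0.000249) and 4.33-fold higher than in revertant ovaries (log2 fold change 2.12, SE 0.287, adjusted p = 0.00045). Larger log2 fold changes than that of Imp-L2 were found for 4.72% of genes against workers and 5.28% against revertants. With library size class (over or under 3500000 counts) as a term, the log2 fold change of Imp-L2 between gamergate and worker ovaries was 3.08, and that of ALS was 4.44.

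**Figure D1:**
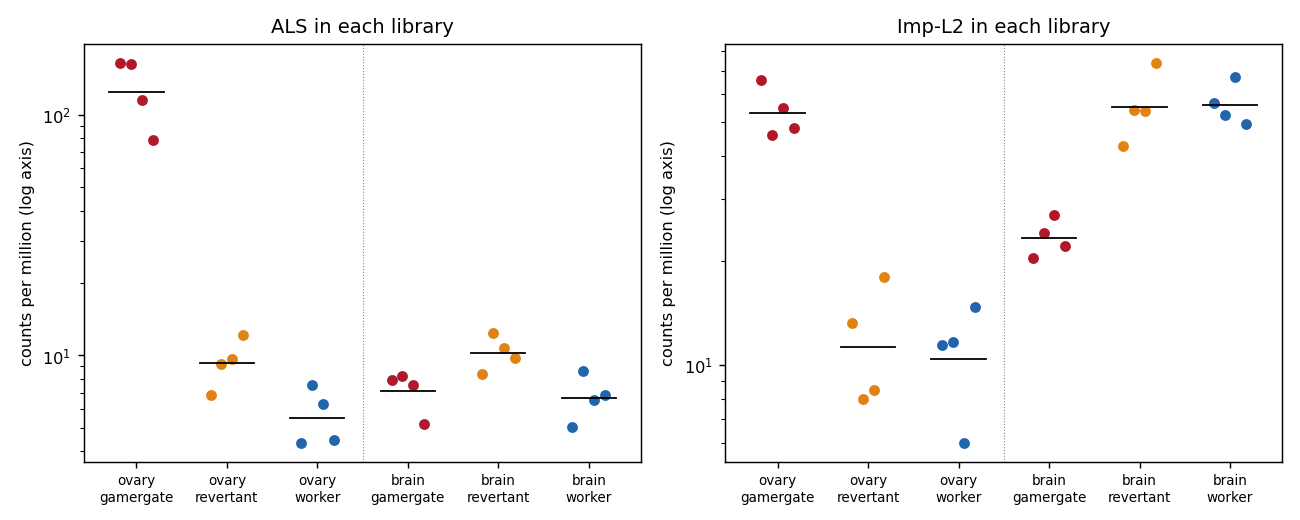
CPM on a log axis of ALS (left) and Imp-L2 (right) in each of 24 libraries, by tissue and caste. Points are single ants and bars are means of the log values of 4 ants. The gamergate ovaries stand above all other ovaries for both genes, at 78.6 to 165 CPM for ALS and 45.9 to 66.1 CPM for Imp-L2, and the gamergate brains stand below all other brains for Imp-L2, at 20.3 to 27 CPM.

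Revertant ovaries were not called different from worker ovaries for either gene. For ALS the log2 fold change was 0.73 (SE 0.279, 95% interval 0.10 to 1.37, adjusted p = 1). The revertants had the higher mean, the ranges overlapped and the exact permutation test over the 8 ovaries gave p = 0.0571. For Imp-L2 the log2 fold change was 0.10, with a 95% interval of −0.77 to 0.98 (adjusted p = 1). In this comparison 0% of 8667 genes were called in either direction, while 377 genes (4.35%) had an unadjusted p under 0.05 and DESeq2 called 29. The intervals therefore leave room for a revertant level up to 1.37 above that of workers in ALS and up to 0.98 above it in Imp-L2, on the log2 scale.

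In the brain, Imp-L2 went the other way. Imp-L2 had 20.3, 24, 27 and 22 CPM in gamergate brains, from 36 to 50 reads. It had 42.7, 54.2, 53.9 and 73.8 CPM in revertant brains, from 254 to 636 reads, and 56.5, 52.4, 67.4 and 49.5 CPM in worker brains, from 72 to 257 reads. Every gamergate brain lay below every other brain, as for 5.21% of genes against workers and 25% against revertants. Imp-L2 fell by 1.30 on the log2 scale in gamergate brains against worker brains (SE 0.161, 95% interval −1.66 to −0.94, adjusted p = 0.00552). Few genes were called between these brains, 0.33% of 8481 higher and 0.719% lower, and 0.707% had a lower log2 fold change than Imp-L2. Within the libraries under 3500000 counts, which are all 4 gamergates and 2 workers, the log2 fold change was −1.13 (adjusted p = 0.00309).

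Against revertant brains, Imp-L2 fell by 1.28 on the log2 scale in gamergate brains (SE 0.174, adjusted p = 0.000116), where 27.4% of genes were called higher and 29.9% lower. All gamergate brains held fewer than 3500000 counts and all revertant brains more, so caste and library size class cannot be told apart in this comparison by itself. When the workers were included and size class was a term, the log2 fold change was −0.97 and was no longer called (adjusted p = 0.101). Revertant and worker brains did not differ detectably in Imp-L2 (log2 fold change −0.03, 95% interval −0.42 to 0.36, adjusted p = 0.928), and 0% of 9360 genes were called between them, with 1521 at an unadjusted p under 0.05 and 58 called by DESeq2.

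Markers of other cells also differed between these brains. The summed level of 7 fat body genes was 32400 to 87800 CPM in gamergate brains, 16300 to 21400 CPM in revertant brains and 14800 to 21800 CPM in worker brains. The sum of 8 neuronal genes was 3260 to 3440 CPM in gamergate brains, 4550 to 5560 CPM in revertant brains and 3340 to 5040 CPM in worker brains. That of 3 glial genes was 1030 to 1250 CPM in gamergates, 1620 to 2420 CPM in revertants and 1180 to 2120 CPM in workers. In worker brain replicates 2 and 4, under 3500000 counts, neuronal sums were 3450 and 3340 CPM and glial sums 1230 and 1180 CPM. In worker replicates 1 and 3, over that limit, they were 4980 and 5040 CPM and 2120 and 1540 CPM. Both sums were higher in the larger worker libraries. All gamergate brains were under that limit and all revertant brains over it. Fat body sums thus did not overlap between gamergates and the other castes, and glial sums overlapped with workers only. Among them the yolk protein gene Vgn had a mean of 33320 CPM in gamergate, 1405 in revertant and 1213 in worker brains, whereas the lipid carrier gene apolpp averaged 18860 CPM in gamergates, 17220 in revertants and 16600 in workers and was not called. Of the fat body genes, 3 of 5 tested rose in gamergates against revertants (27.4% of all genes) and 2 of 4 against workers (0.33% of all genes). Of the neuronal genes, 8 of 8 fell in gamergates against revertants, with a median log2 fold change of −0.47, where 29.9% of all genes were called lower. Against workers 1 of 8 fell, with a median of −0.28, where 0.719% of all genes were called lower. The part of these differences in the Imp-L2 result was not tested.

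ALS was not called in any brain comparison. ALS had 7.89, 8.19, 7.56 and 5.21 CPM in gamergate brains, from 9 to 14 reads. It had 8.4, 12.4, 10.7 and 9.75 CPM in revertant brains, from 37 to 146 reads, and 5.06, 8.62, 6.52 and 6.87 CPM in worker brains, from 10 to 24 reads. Gamergates and workers overlapped, and the gamergates lay below all revertants, as for 25% of all genes. The log2 fold change of ALS was 0.12 against workers (95% interval −0.51 to 0.74, adjusted p = 0.859) and −0.55 against revertants (SE 0.222, 95% interval −1.04 to −0.07, adjusted p = 0.0514). The difference from revertants was −0.96 with size class as a term (adjusted p = 0.267), and it passed the threshold without revertant replicate 1 (log2 fold change −0.63, adjusted p = 0.0376). Revertant brains against worker brains gave a log2 fold change of 0.65 (SE 0.243, 95% interval 0.11 to 1.19, adjusted p = 0.298).

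Comparing both tissues within a caste, the order of ovary and brain depended on caste. In gamergates Imp-L2 was 2.13-fold higher in the ovary than in the brain (log2 fold change 1.09, SE 0.149, adjusted p = 2.2e-05). In revertants it was lower in the ovary, with a log2 fold change of −2.45 (SE 0.293, adjusted p = 0.00011), and in workers likewise, with −2.43 (SE 0.28, adjusted p = 6.17e-05). ALS was 16.7-fold higher in the ovary than in the brain of gamergates (log2 fold change 4.06, SE 0.294, adjusted p = 7.25e-08). In revertants and workers its log2 fold changes between ovary and brain were −0.29 and −0.26 and were not called (adjusted p = 0.26 and 0.498). Calls between tissues were common. In gamergates 45.3% of genes were called higher and 39.5% lower in the ovary, in revertants 33% and 32.4%, and in workers 31% and 26.7%.

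An interaction term, the caste effect in the ovary minus that in the brain, compared both tissues. For Imp-L2 it was 3.60 on the log2 scale for gamergates against workers (SE 0.317, adjusted p = 2.8e-06) and 3.61 for gamergates against revertants (SE 0.333, adjusted p = 1.64e-06). For ALS it was 4.35 (SE 0.406, adjusted p = 5.42e-06) and 4.41 (SE 0.359, adjusted p = 5.12e-07). In these tests 17% and 23.2% of genes were called with a higher ovary effect, and 18.8% and 19% with a lower one. For revertants against workers the interaction was 0.13 for Imp-L2 (95% interval −0.73 to 0.99) and 0.11 for ALS (95% interval −0.66 to 0.89), and 0% of 9798 genes were called, with 662 at an unadjusted p under 0.05 and 13 called by DESeq2. Against workers, the interaction of ALS came with a brain log2 fold change of 0.12 that was not called, while that of Imp-L2 joined a called higher level in the ovary to a called lower level in the brain. Against revertants, the brain log2 fold changes were −0.55 for ALS, not called, and −1.28 for Imp-L2.

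**Figure D2:**
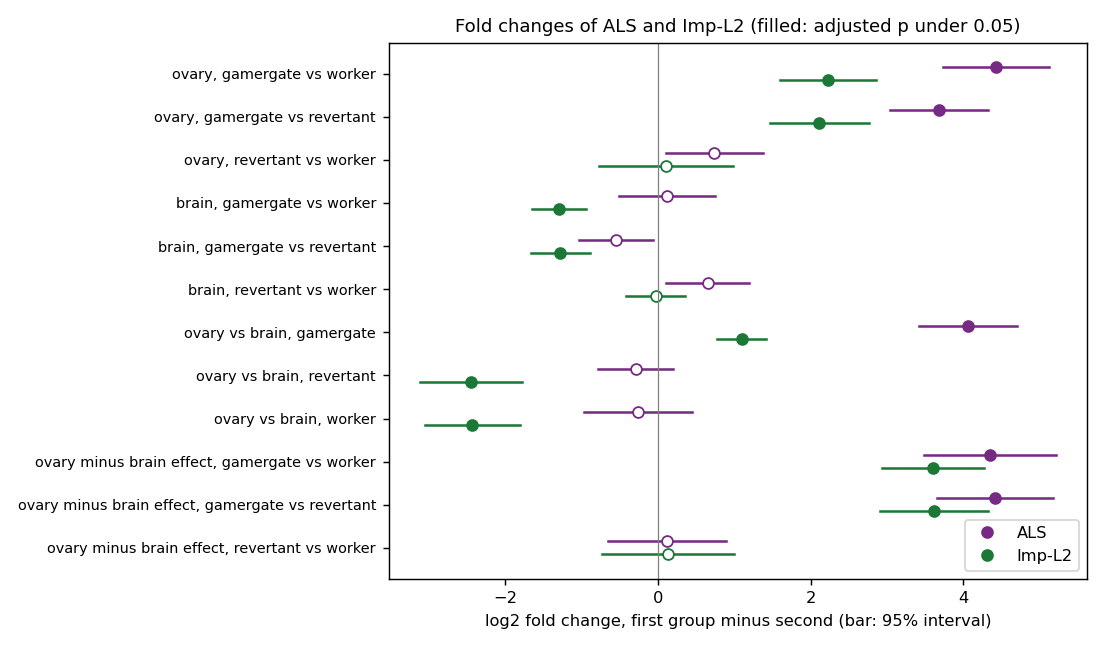
Log2 fold changes (x axis, first group named minus second) of ALS and Imp-L2 in 12 comparisons, with 95% intervals as bars. Filled points passed an adjusted p of 0.05. In the ovary both genes were higher in gamergates, at 4.43 and 2.23 against workers, while in the brain Imp-L2 was lower, at −1.30, and ALS was at 0.12.

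The balance of the 2 transcripts was compared within each library as ALS reads per Imp-L2 read, a ratio that no scaling of libraries can change. Transcript lengths were not used here, so the ratio gives no order of the levels of both genes and only its change between groups is read. The ratio was 2.49, 3.55, 2.11 and 1.64 in gamergate ovaries, 0.52, 1.15, 1.14 and 0.675 in revertant ovaries and 0.378, 0.645, 1.05 and 0.303 in worker ovaries. In brains it was 0.389, 0.342, 0.28 and 0.237 in gamergates, 0.197, 0.23, 0.199 and 0.132 in revertants and 0.0895, 0.165, 0.0968 and 0.139 in workers. Gamergates had the higher ratio in both tissues, with no overlap. How many other gene pairs separate in this way was not computed. Of single genes, 32.8% lay higher without overlap in gamergate than in worker ovaries, and 33% against revertants.

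Gamergates exceeded workers in the log2 ratio by 2.16 in the ovary and by 1.37 in the brain, and exceeded revertants by 1.51 in the ovary and by 0.72 in the brain. Each of these gave p = 0.0286 in the exact two-sided permutation test, the smallest p that 4 against 4 libraries allow, and 0.0368 after adjustment over 9 comparisons of the ratio. The ratio was not among the planned tests. It restates the changes of both genes in the same libraries, so its p-values are no separate support. In the ovary the ratio rose with the larger increase of ALS, and in the brain with the fall of Imp-L2. For revertants against workers the ranges overlapped, with differences of 0.65 in the ovary (exact permutation p = 0.229) and 0.65 in the brain (exact permutation p = 0.0857). The ratio was also higher in ovary than in brain in each caste, by 2.94 in gamergates, 2.15 in revertants and 2.15 in workers (exact permutation p = 0.0286 each). These tissue differences had no overlap, again without a share over other gene pairs.

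**Figure D3:**
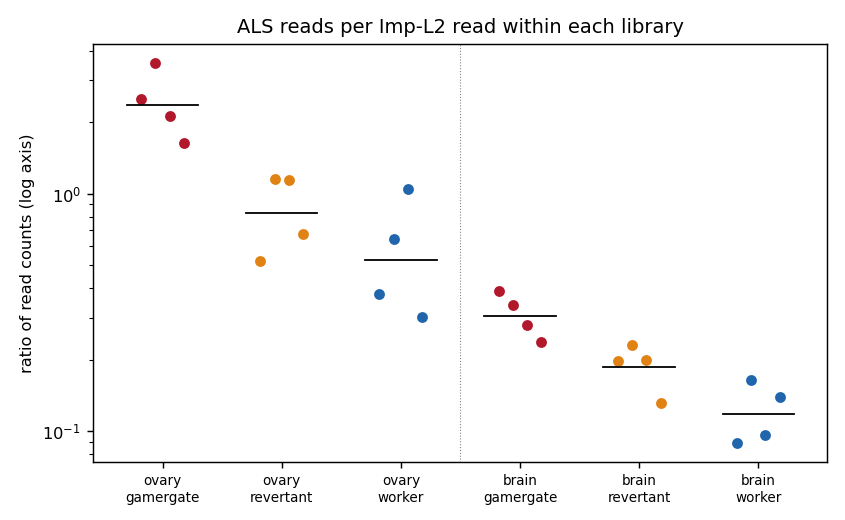
ALS reads divided by Imp-L2 reads within each library (log axis), by tissue and caste. Points are single ants and bars are geometric means of 4 ants, at 2.35 in gamergate, 0.825 in revertant and 0.527 in worker ovaries, and 0.306 in gamergate, 0.186 in revertant and 0.119 in worker brains. Gamergates stand highest in each tissue.

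The level of both genes was set beside markers of egg formation in the ovaries, as values per ant. The vitellogenin receptor yl had 1600, 1530, 1790 and 1510 CPM in gamergate ovaries, 306, 1490, 2030 and 160 CPM in revertant ovaries and 534, 472, 1960 and 362 CPM in worker ovaries. Revertant replicate 3 and worker replicate 3 thus lay above all gamergates in yl, and revertant replicate 2 lay just below the lowest gamergate. In revertant replicates 2 and 3 and worker replicate 3 ALS was at 9.24, 9.7 and 6.28 CPM and Imp-L2 at 8.01, 8.49 and 6 CPM, the lowest Imp-L2 values of their castes. Neither gene was near its gamergate level in these 3 ovaries. The yl gene itself was not called in gamergate ovaries against workers (log2 fold change 0.88, adjusted p = 0.15) or revertants (0.62, adjusted p = 0.44). By RT-PCR the paper found RNA of both genes mainly in late egg chambers and yolky oocytes, stages it reports for gamergates only. Whether yl marks those stages was not tested. All 3 of these revertant and worker ovaries held more than 3500000 counts, and library size moves with yl in these castes.

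The egg shell genes yellow-g and yellow-g2, which act in forming the egg covering in Drosophila, were uneven among gamergates. In gamergate ovaries yellow-g had 10.9, 128, 0.188 and 352 CPM and yellow-g2 had 0.952, 151, 0.188 and 15.6 CPM. Outside gamergate ovaries both were below 1 CPM in every library. Another egg shell gene, ndl, had 36.7 to 856 CPM in gamergate, 41.4 to 114 in revertant and 117 to 209 in worker ovaries. For ndl the log2 fold change of gamergate ovaries was 1.21 against workers (adjusted p = 0.268) and 2.26 against revertants (adjusted p = 0.0662), not called. The gamergate ovary with the least yellow-g, replicate 3, had 116 CPM of ALS and 54.7 CPM of Imp-L2, and the one with the most, replicate 4, had the lowest ALS of the gamergates at 78.6 CPM. Among the 4 gamergate ovaries the order of ALS thus differed from that of yellow-g, a gene named after its values were seen. A relation between them was not tested. Muscle markers also moved with caste: the sum of 11 muscle genes was 419 to 459 CPM in gamergate ovaries, 721 to 2030 CPM in revertant ovaries and 966 to 4290 CPM in worker ovaries, and 11 of 11 were lower in gamergate than in worker ovaries, with a median log2 fold change of −3.80, where 28.9% of all genes were called lower. The part of muscle in the results on ALS and Imp-L2, and in the ratio of their reads, was not tested.

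**Figure D4:**
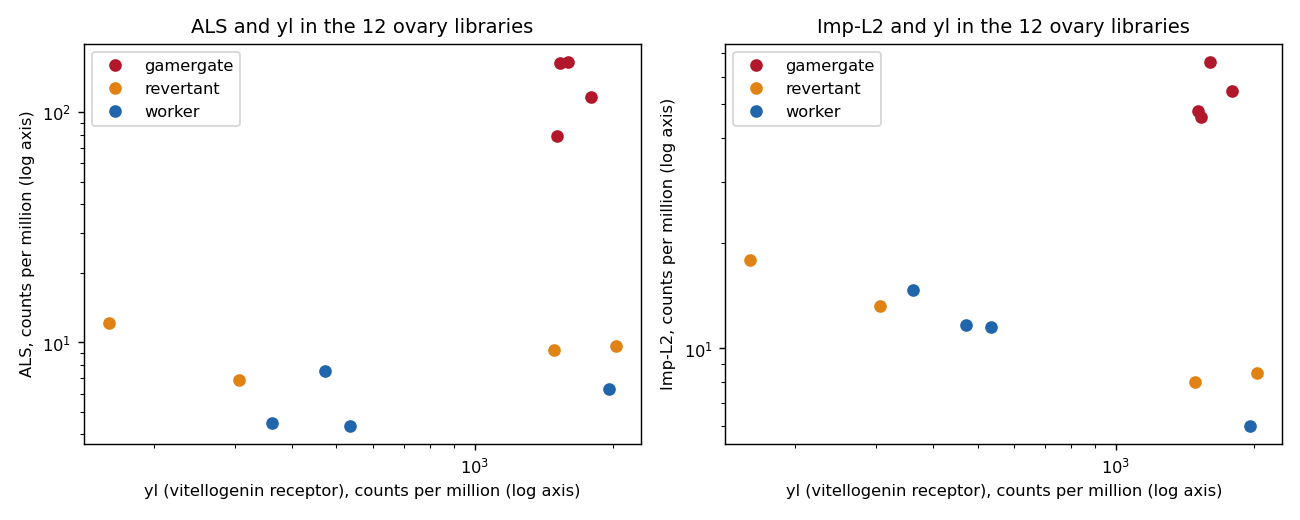
ALS (left) and Imp-L2 (right) against yl, the vitellogenin receptor, in the 12 ovaries, all in CPM on log axes, with a color for each caste. Gamergates group at 1510 to 1790 CPM of yl and high levels of both genes. At 1490 to 2030 CPM of yl, 2 revertants and 1 worker have 6.28 to 9.7 CPM of ALS and 6 to 8.49 CPM of Imp-L2.

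Of the proteins related to ALS or Imp-L2 by name, a further gene annotated as an acid-labile subunit moved against ALS in the ovary. LOC105182703 (insulin-like growth factor-binding protein complex acid labile subunit, partial) had 25.7, 18.4, 29.4 and 21.9 CPM in gamergate ovaries, 109, 107, 83.5 and 102 CPM in revertant ovaries and 128, 166, 103 and 113 CPM in worker ovaries. The gamergates lay below all others. LOC105182703 fell by 2.51 on the log2 scale against workers (SE 0.196, adjusted p = 3.64e-05) and by 2.18 against revertants (SE 0.17, adjusted p = 3.03e-05). In these ovary comparisons 28.9% and 29% of all genes were called lower, so a lower level in gamergates was common. In the brain the log2 fold change of LOC105182703 was −0.64 against workers (adjusted p = 0.22) and −1.06 against revertants (adjusted p = 3.06e-05). Gamergate brains had 26.3 to 34.1 CPM. Worker brain replicates 2 and 4, also under 3500000 counts, had 29.6 and 30.2 CPM. Worker replicates 1 and 3, over that limit, had 60.1 and 55.2 CPM, and revertants, all over it, had 51.7 to 67 CPM. Its brain level thus split by library size class, which cannot be told apart from caste against revertants. The counting of reads with several alignments is not given in the sources used here.

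The leucine-rich repeat proteins artichoke (LOC105184630) and chaoptin (chp) did not pass the test in gamergate against worker ovaries, at log2 fold changes of −1.40 (adjusted p = 0.0999) and 0.65 (adjusted p = 0.0896). Without worker replicate 3, LOC105184630 was at −0.15 (adjusted p = 0.702) and chp passed at 0.94 (adjusted p = 0.00707), and chp also passed with the replicate block (0.77, adjusted p = 0.0393). In Drosophila chaoptin is a cell adhesion protein of photoreceptors. Over all 5 genes of this list, both members included, 2 were higher and 1 lower in gamergate ovaries against workers, with a median log2 fold change of 0.65 beside −0.01 over all genes. These counts lie near the 29.4% of all genes called higher and 28.9% called lower. In the brain 1 of 5, Imp-L2, was lower in gamergates against workers (0.719% of all genes), with a median of −0.45. Against revertants 3 of 5 were lower, Imp-L2, LOC105182703 and LOC105184630 (29.9% of all genes), with a median of −0.67. Caste and library size class cannot be told apart in that comparison.

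Other genes of the insulin pathway changed as follows. Of the ligands, the insulin-like growth factor IGF (LOC105186969) rose by a log2 fold change of 4.22 in gamergate against worker ovaries (SE 0.268, adjusted p = 1.6e-05), with 323.2 ± 35.95 CPM in gamergates, 18.4 ± 10.4 in revertants and 15.9 ± 6.42 in workers (SD, n = 4 each). The insulin gene Ins (RefSeq symbol ILP-2) had 1.92 ± 0.416 CPM in gamergate ovaries and 1.04 ± 0.574 CPM in worker ovaries and was not called (adjusted p = 0.0854). In the brain Ins rose by a log2 fold change of 1.58 in gamergates against workers (SE 0.212, adjusted p = 0.00642), a call that was lost by a narrow margin with size class as a term (1.79, adjusted p = 0.0501), so among these 2 genes the brain paired higher Ins with lower Imp-L2. IGF did not pass the filter for that comparison, at 0 to 6 reads in gamergate brains and 19 to 116 reads in worker brains.

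Both insulin receptor genes fell in gamergate against worker ovaries, InR1 (RefSeq symbol InR-2) by 1.20 on the log2 scale (SE 0.148, adjusted p = 0.000249) and InR2 (LOC105183944) by 1.68 (SE 0.174, adjusted p = 0.000122). In gamergate against worker brains neither was called, at log2 fold changes of 0.20 (adjusted p = 0.636) and −0.26 (adjusted p = 0.578). In gamergate against revertant brains InR2 fell by 0.53 (adjusted p = 0.00012), IGF fell by 3.38 (adjusted p = 0.00085), Ins rose by 1.01 (adjusted p = 0.0133) and InR1 was at −0.01 (adjusted p = 0.898), all on the log2 scale.

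Downstream, 3 of 18 genes of the AKT and TOR branch were higher and 9 lower in gamergate than in worker ovaries, with a median log2 fold change of −0.47 against −0.01 over all genes, of which 29.4% were called higher and 28.9% lower. The higher genes were LOC105189706, an insulin-degrading enzyme-like protease gene that was put in this list by name (log2 fold change 7.53, with 773 to 1709 reads in gamergate and 0 to 4 in worker ovaries), Thor, which encodes the translation inhibitor 4E-BP (0.84, adjusted p = 0.00135), and Akt, the kinase gene itself (0.65, adjusted p = 0.0453). Thor lost its call with size class as a term (0.51, adjusted p = 0.0583). Akt lost its call there as well (0.19, adjusted p = 0.394), and also in 7 of the 8 fits that left out a library. Without worker replicate 3 its log2 fold change was 1.00. The lower genes included Pi3K21B, the regulatory subunit of PI3K (−1.15), and rictor of TOR complex 2 (−0.81). foxo also fell (−0.60, adjusted p = 0.00897).

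Of the MAPK branch, 1 of 9 genes was higher and 5 were lower in gamergate than in worker ovaries, beside the same 29.4% and 28.9% of all genes, with a median log2 fold change of −0.44. The scaffold gene ksr was higher (0.70, adjusted p = 0.00101). The kinase gene Raf (−1.27, adjusted p = 0.000356), the MEK gene Dsor1 (−0.50, adjusted p = 0.0201) and the adaptor gene Shc (−0.48, adjusted p = 0.00879) were lower, and the calls of Dsor1 and Shc did not hold under every alternative. In the brain 0 of 17 genes tested of the AKT and TOR branch and 0 of 9 of the MAPK branch were called between gamergates and workers, at medians of −0.05 and 0.05, and log2 fold changes ranged from −0.59 to 0.45 and from −0.16 to 0.29. Of all genes 0.33% were called higher and 0.719% lower there. Imp-L2 and Ins were the members of the pathway lists called in that comparison, where DESeq2 called 332 genes and 1576 had an unadjusted p under 0.05. Between gamergate and revertant brains, where 27.4% of all genes were called higher and 29.9% lower, 4 of 17 genes of the AKT and TOR branch were higher and 7 lower, and 3 of 9 of the MAPK branch were higher and 2 lower.

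**Figure D5:**
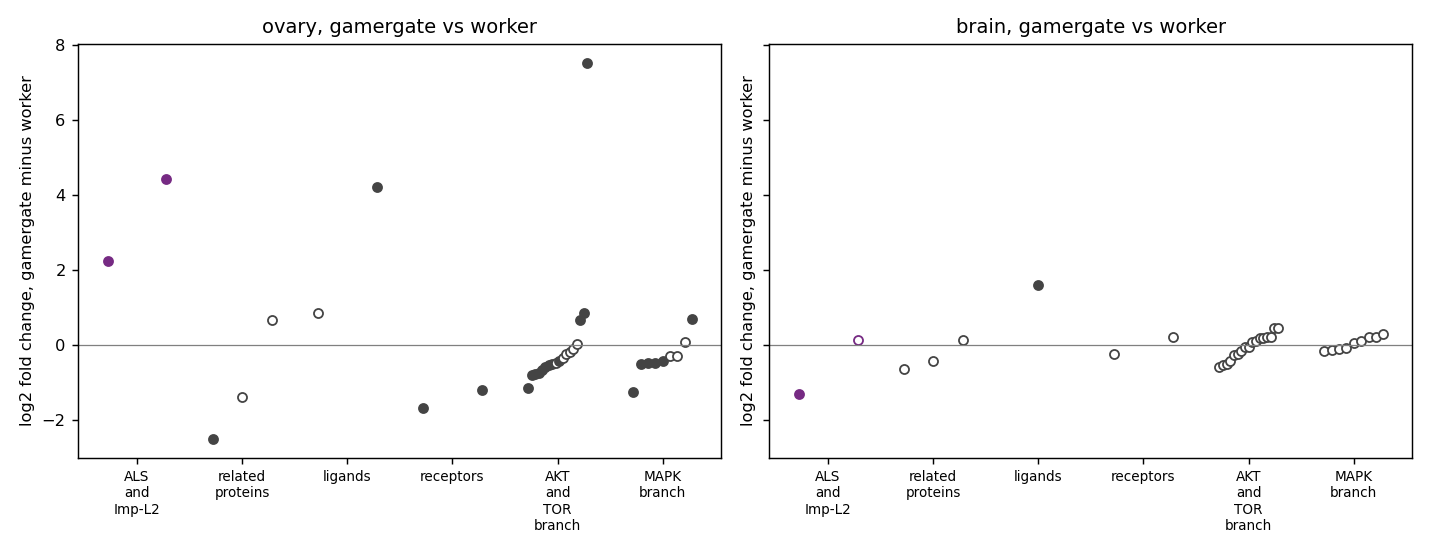
Log2 fold changes (y axis, gamergate minus worker) of ALS and Imp-L2 (purple) and of the tested genes of 5 lists (related proteins, ligands, receptors, AKT and TOR branch, MAPK branch) in ovary (left) and brain (right). Filled points passed an adjusted p of 0.05. In the ovary ALS and Imp-L2, at 4.43 and 2.23, stand above most of the pathway, and in the brain Imp-L2, at −1.30, is the lowest point.

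Both genes had different companions among the 10127 genes compared over 24 libraries. The correlation of log2 CPM between ALS and Imp-L2 was 0.42, a description over libraries that share tissue and caste. By that measure ALS was in place 1632 for Imp-L2 and Imp-L2 in place 3465 for ALS. Most like Imp-L2 were stl, LOC105186979 (ras-related and estrogen-regulated growth inhibitor), LOC105188158, the diuretic hormone gene Dh44 and agt, with r of 0.89 to 0.90. Since they were picked by correlation over these same libraries, a pattern like that of Imp-L2 follows from the choice. On average they had more CPM in gamergate ovaries than in the other ovaries, and fewer in gamergate brains than in the other brains. Dh44, for example, averaged 17.7 CPM in gamergate, 1.41 in revertant and 1.27 in worker ovaries, and 6.7 CPM in gamergate against 15.2 in revertant and 15.2 in worker brains. The differences of agt were smaller, with 50.9 CPM in gamergate, 38.4 in revertant and 37.5 in worker ovaries.

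Most like ALS were LOC105185069, LOC105188673, LOC105185065, LOC105186950 and LOC105189830, with r of 0.97 to 0.98. These 5 averaged 3.67 to 31.5 CPM in gamergate ovaries, at most 0.336 CPM in the ovaries of the other castes and at most 0.127 CPM in any caste's brains. They were thus nearly silent where ALS was at 4.34 to 12.4 CPM.

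Of the genes next to ALS in the order of the RefSeq table, LOC105189590 (an uncharacterized protein) had 12343, 5205, 14231 and 8924 reads in gamergate ovaries, 4, 35, 101 and 8 in revertant ovaries and 5, 7, 28 and 5 in worker ovaries. Its log2 fold change was 8.17 between gamergate and worker ovaries (adjusted p = 3.92e-06), larger than that of ALS. On the other side qsm was not called against workers (−0.74, adjusted p = 0.104) and was lower in gamergate than in revertant ovaries (−1.77, adjusted p = 0.0238). Next to Imp-L2, LOC105183442 (leucine-rich repeat transmembrane neuronal protein 4-like) was lower in gamergate ovaries (−4.32, adjusted p = 0.00836) and LOC105183449 was higher by 0.60 (adjusted p = 0.00112), both against workers. In gamergate against revertant brains LOC105183442 was lower, as Imp-L2 was (−1.69, adjusted p = 0.00654), and LOC105183449 was not called (0.01, adjusted p = 0.944).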

How the data were processed

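PolyA RNA of single ants was made into strand-specific libraries by the authors, who aligned the reads with STAR (release 2.5.3a in the submitters' processing notes, which also name Trimmomatic and edgeR). The authors deposited 1 table of raw gene counts per tissue, each with 12654 genes, and 0 columns were left unmatched to a library. The counting program, annotation release and handling of strand and multiple alignments are not given in the sources used here. The paper's genome version differs from the RefSeq table's Hsal_v8.6, so only names and gene order were used, and 12632 identifiers matched. Fat body libraries (12) were not used here.

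From these deposited counts, CPM and log2 CPM (prior count 2, TMM over 24 libraries) were calculated in R 4.3.3 (edgeR 4.0.16). Each comparison was fitted on its own libraries with filterByExpr, TMM and edgeR's quasi-likelihood test, and p-values were Benjamini-Hochberg adjusted over all genes tested, with a threshold of 0.05. The standard error is the absolute log2 fold change over the square root of F. Alternatives were other scalings, DESeq2 1.42.0, no filter, a filter of 10 counts in each library, wider fits, a replicate block, library size class, thinned counts and leaving out each library. The tests were tested on simulated data. Intervals cover the spread between libraries, and floors cover counting error only, since PCR copies of a molecule were not told apart. No library was a copy of another of the same tissue and caste, and copies across these groups were not checked. The smallest two-sided exact permutation p for 4 against 4 is 0.0286.

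Members and lists were chosen with earlier results of these data known. Named genes are both members, all ligands, receptors and related proteins, AKT and FOXO, up to 3 genes per direction of each branch list with the largest called change between gamergate and worker ovaries, the 5 most alike genes (Pearson, 24 libraries) and the adjacent genes. A gene that this rule names is not reported here. Egg shell genes named singly were chosen after their values were seen. Gene lists were matched by product name and extended by RefSeq symbol. Same-numbered libraries all deviated together only between ovary and brain of revertants (correlations 0.152 to 0.238, all above 0.1). There the replicate block changed no call of ALS or Imp-L2. Between worker and revertant ovaries, which came from different ants, the correlations were 0.223, −0.15, 0.449 and 0.345. Such correlations therefore do not show that a number marks the same ant.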

Additional observations from a re-analysis of the deposited data

Results flagged for a closer look

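The effect of caste differed between the tissues for both genes by the interaction test. For Imp-L2 the ovary effect exceeded the brain effect by 3.60 on the log2 scale for gamergates against workers and by 3.61 for gamergates against revertants. For ALS the same differences were 4.35 and 4.41. Imp-L2 was higher in gamergates in the ovary and lower in gamergates in the brain. ALS was higher in gamergates in the ovary, and its brain comparisons were not called. Both pairs share the gamergate libraries, and tissue and lane cannot be told apart.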

How the results depend on the processing

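Of 468 alternatives run on the 24 results for Imp-L2 and ALS, 453 kept direction and side of the threshold. The replicate block changed no call of either gene, with, for example, log2 fold changes of 2.27 for Imp-L2 and 4.41 for ALS between gamergate and worker ovaries. Only between the tissues of revertants did all same-numbered libraries deviate together, which does not show that they came from the same ant. With a term for library size class, the fall of Imp-L2 in gamergate against revertant brains was −0.97 and lost its call, and ALS between gamergate and worker brains turned to −0.12, as it did within the libraries under 3500000 counts (−0.11). ALS between gamergate and revertant brains moved to −0.96 with that term. In the brain this term rests on the workers, and in gamergate against worker ovaries it turned chp to −0.28. Gamergate and worker ovaries shared a size class in too few libraries for a fit within it. With library size only, ALS between ovary and brain of revertants was 0.067, and with thinned counts its interaction for revertants against workers was −0.002. The causes were not tested.

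Leaving out 1 library gave ranges of −0.027 to 0.242 for ALS in gamergate against worker brains (negative without worker replicate 1), −0.63 to −0.40 in gamergate against revertant brains, and −0.023 to 0.266 for its interaction of revertants against workers (negative without ovary revertant replicate 4 or brain worker replicate 2). For Imp-L2 the ranges were −0.16 to 0.30 in revertant against worker ovaries and −0.13 to 0.30 for that interaction (negative in both without worker replicate 3 or revertant replicate 4 of the ovary), and −0.18 to 0.08 in revertant against worker brains (positive without worker replicate 3 or revertant replicate 1). None of these was called on all libraries. The log2 fold changes of gamergates against workers in the ovary stayed at 4.32 to 4.62 for ALS and 2.00 to 2.41 for Imp-L2. Differences of the log2 read ratio between gamergates and workers stayed at 1.89 to 2.49 in the ovary and 1.23 to 1.53 in the brain. These were added after seeing the data.

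The number of genes called between gamergate and worker brains, 89, moved to 47 to 401 with all libraries under other settings and to 24 to 850 without 1 library, by over 1.5 times without any library except worker replicate 2. Between gamergate and revertant brains it was 5157, and 73 with the size term. With at least 10 counts in every library, 5 results on ALS had no value, since a gamergate brain held 9 ALS reads, and DESeq2 gave no adjusted p for 1 result. The floor of 3 counts reaches 2.24 CPM for brains and 1.8 CPM for ovaries at the lowest depth, which limits what can be said of ALS in the brain.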
